A study of Mus musculus with 7 samples.

Results

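EKLF-bound regions that were called in mouse fetal liver erythroid progenitors and overlapped no region called in erythroblasts are described here. A region, called a peak, counted as progenitor-only where no erythroblast peak covered even 1 bp of it. By this rule 1402 of 7358 progenitor peaks, or 19.1%, were progenitor-only, of 26711 peaks in both lists. The erythroblast list is the longer, and the share depends on it: against only its highest-ranked peaks, as many as there are progenitor peaks, 3794 progenitor peaks (51.6%) had no overlap. The other 5956 progenitor peaks were shared, and 13376 of 19353 erythroblast peaks overlapped no progenitor peak. Peak positions in both lists chose the members, so a peak's presence in 1 list is not a finding, and rank, enrichment and spacing between the lists are given as description without a test.

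Erythroid Kruppel-like factor (EKLF, gene Klf1) was mapped by chromatin immunoprecipitation sequencing at stage E13.5 in mice whose KLF1 carries a hemagglutinin tag, and the same genotype was used in every group, with no treatment. Progenitors were sorted from dissociated livers as Ter119-CD71- and Ter119-CD71+ cells together, and erythroblasts as Ter119+CD71+ cells. Antibodies against the tag pulled down the factor, sheared chromatin taken through without antibody served as background, and RNA of both populations was sequenced. The 7 samples were 2 ChIP, 2 input and 3 RNA libraries, with at least 3 independent sorts per population. Each stage had 1 pooled peak list and 1 column of RNA coverage, so no difference between stages has a replicate check and no p-value is given. Read totals are not in the lists, and the precision of a single peak or gene is unknown.

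EKLF is a zinc finger transcription factor that binds CACC-type boxes in promoters and enhancers of red cell genes. It is best known as an activator of the adult beta-globin gene, of heme synthesis and of the red cell membrane skeleton. It is already present in erythroid progenitors, before hemoglobin accumulates. Tfrc, which encodes the sort antigen CD71, had a coverage signal of 21.3 in progenitors and 148 in erythroblasts. No progenitor-only peak lay within 5 kb of Tfrc or of Klf1, whose signal was 73.9 in progenitors and 145 in erythroblasts. Of the defining markers of progenitors (Kit, Gata2, Myb and Cd34) 0 of 4 were listed in the expression table, and of 6 erythroblast markers only Tfrc and Hba-a1 were. The lowest value listed was 0.80 in each stage, so the table was read as leaving out exons below that signal in either stage. These absences thus say nothing on the sorted cells.

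Promoters of 4 genes with a progenitor-only peak at their first coding exon are shown first, because they stand for the range of what followed. Mrpl58, a release factor of mitochondrial ribosomes, had the highest-ranked such peak among genes with a promoter in the RefSeq table. Blvrb, a flavin and biliverdin reductase abundant in red cells, had the largest rise in RNA among them, and Kti12, a factor of tRNA modification, the largest fall. Nolc1, a nucleolar phosphoprotein that works with small nucleolar ribonucleoproteins, was the member of the ribosome biogenesis list. Each line gives the 250 bases before the annotated start from RefSeq on build GRCm38.p6, all on the + strand, at chr11:115403502-115403751, chr7:27447728-27447977, chr4:108847607-108847856 and chr19:46075597-46075846 in that order. Capitals mark matches, on either strand, to CCNCNCCC, a loose form of the EKLF box, or to CCGGAA, the core of many ETS factor sites.
Mrpl58: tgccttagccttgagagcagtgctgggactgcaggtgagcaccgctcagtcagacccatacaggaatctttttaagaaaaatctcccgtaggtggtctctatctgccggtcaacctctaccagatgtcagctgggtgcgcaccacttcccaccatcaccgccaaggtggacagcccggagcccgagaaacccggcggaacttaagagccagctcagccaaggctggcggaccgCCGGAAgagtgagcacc
Blvrb: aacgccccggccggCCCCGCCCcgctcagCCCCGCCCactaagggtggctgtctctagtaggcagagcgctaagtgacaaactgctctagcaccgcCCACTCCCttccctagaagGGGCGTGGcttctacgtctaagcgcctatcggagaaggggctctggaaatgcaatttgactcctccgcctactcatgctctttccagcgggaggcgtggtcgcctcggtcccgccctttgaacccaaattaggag
Kti12: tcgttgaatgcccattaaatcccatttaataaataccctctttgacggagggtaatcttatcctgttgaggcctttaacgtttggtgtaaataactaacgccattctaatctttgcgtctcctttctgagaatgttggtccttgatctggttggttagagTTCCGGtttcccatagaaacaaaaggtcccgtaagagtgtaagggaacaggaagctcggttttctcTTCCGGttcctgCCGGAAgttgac
Nolc1: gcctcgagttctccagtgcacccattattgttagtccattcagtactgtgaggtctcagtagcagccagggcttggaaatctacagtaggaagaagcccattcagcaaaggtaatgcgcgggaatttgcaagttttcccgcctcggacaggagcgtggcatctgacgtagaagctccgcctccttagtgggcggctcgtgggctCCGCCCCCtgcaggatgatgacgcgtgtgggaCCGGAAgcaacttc
The Blvrb stretch held 4 matches to CCNCNCCC and 0 to CCGGAA. Kti12 had the reverse, with 0 and 3 matches, and Nolc1 had 1 of each. The Mrpl58 stretch held only 1 match to CCGGAA. Peak positions are on build mm9, so where these letters fall within the peaks was not set, and a match is not evidence of binding.

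Progenitor-only peaks lay mostly in the weaker part of the progenitor list. Their median enrichment over background, as the authors' value per peak, was 6.60, with a range of 2.61 to 20.3, against 7.15 for shared peaks. The authors' median −log10 p was 6.62 against 8.85, and the median width was 1675 bp against 1965 bp. In the highest-ranked twentieth of the progenitor list 2 of 368 peaks were progenitor-only, or 0.543%, and in the lowest-ranked twentieth 138 of 367, or 37.6%. Rank was taken from −log10 p, with ties broken by enrichment. The plot of progenitor-only share by rank shows a climb over the list with small reversals between neighbouring bars.

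**Figure D1:**
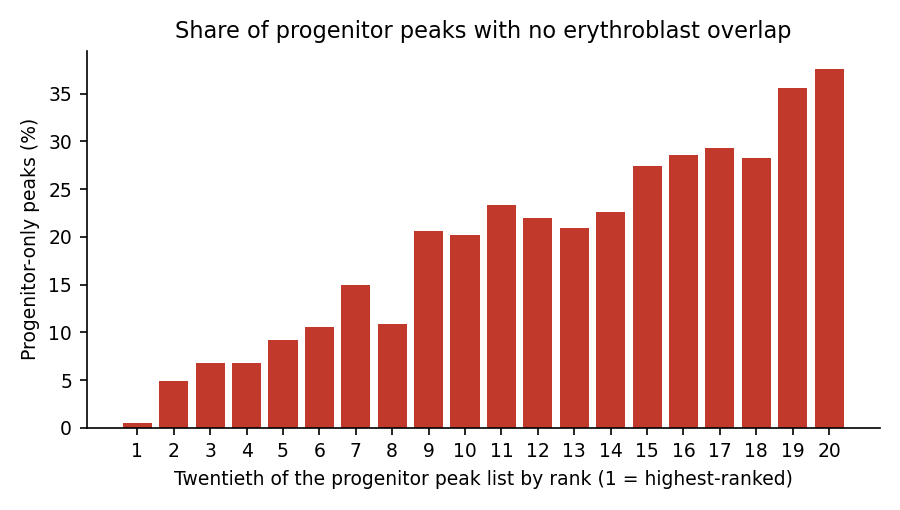
Share of progenitor peaks that overlap no erythroblast peak (y axis, percent) in each twentieth of the progenitor list by rank (x axis, 1 holds the highest-ranked peaks). Bars go from 0.543% in the highest-ranked twentieth to 37.6% in the lowest-ranked, and no error bars are drawn because each stage has 1 list.

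Gaps between members and the nearest erythroblast peak varied widely, and the rule itself excluded any overlap. The median gap was 38.5 kb, with quartiles of 11.8 and 88.0 kb. Of the 1402 members 46 lay within 1 kb of an erythroblast peak, 230 within 5 kb (16.4%) and 820 within 50 kb (58.5%), while 309 had none within 100 kb. The nearest erythroblast peak was itself erythroblast-only for 941 members (67.1%), against 69.1% of all erythroblast peaks. At the edge of the rule, the 5 members closest to an erythroblast peak missed it by 5, 32, 68, 113 and 130 bp. The 5 shared peaks with the least overlap shared 22, 52, 63, 91 and 141 bp. These peaks near the edge had ranks from 4422 to 7024, in the lower part of the progenitor list.

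Taken as a whole, progenitor-only peaks lay farther from coding exons than shared peaks and nearer than erythroblast-only peaks. Distance was measured to the nearest coding exon start listed in the expression table, which the rule did not use. The median distance was 141 kb for progenitor-only, 82.7 kb for shared and 373 kb for erythroblast-only peaks. Within 1 kb of an exon start lay 126 progenitor-only peaks, or 8.99% (Wilson 95% interval 7.60 to 10.6), against 14.1% (13.2 to 15.0) of shared and 5.17% (4.80 to 5.55) of erythroblast-only peaks. The share was 5.07 points below that of shared peaks, with a difference of -5.07 (Newcombe 95% interval -6.72 to -3.24), and 3.82 points above that of erythroblast-only peaks (2.38 to 5.47). These intervals cover counting error over peaks only, since peaks of 1 list are not replicates. At the far end 617 members, or 44.0%, lay over 200 kb from any listed exon start, against 39.5% of shared and 60.7% of erythroblast-only peaks. The table leaves out exons with a signal below 0.80 in either stage, so a gene outside it can lie closer to a peak than these distances say.

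**Figure D2:**
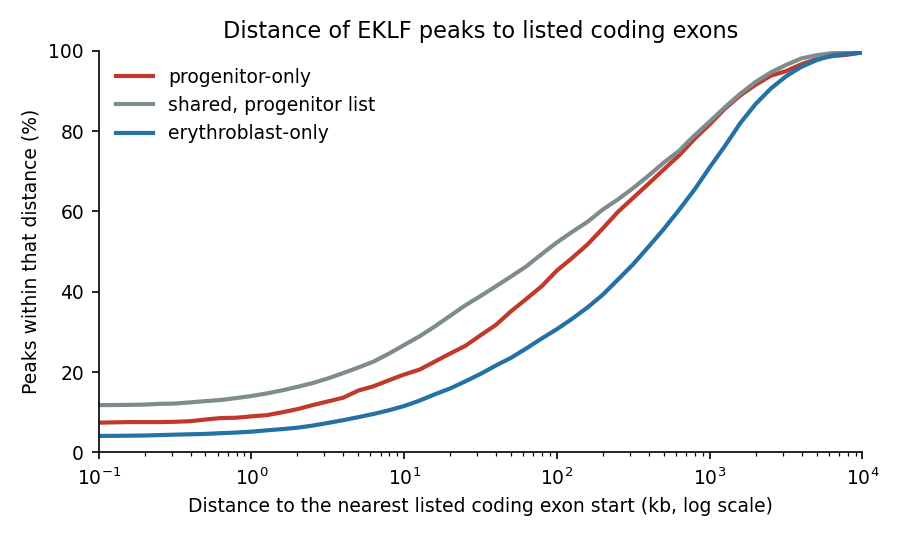
Cumulative share of peaks (y axis, percent) within a distance of the nearest listed coding exon start (x axis, kb, log scale) for progenitor-only, shared and erythroblast-only peaks. The progenitor-only curve still runs between the others at 200 kb, where 44.0% of its peaks lie beyond, and comes close to the shared curve at larger distances.

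Rank moved with nearness to exons. Strong progenitor peaks lie at exon starts more often, and few of them are progenitor-only, so the shares were set side by side within 5 equal parts of the list by rank. In the highest-ranked part 4 of 70 members (5.71%) and 287 of 1402 shared peaks (20.5%) lay within 1 kb, a difference of -14.8 points (-18.9 to -6.43). In each of the other 4 parts the members' share was lower too, with differences from -4.16 to -1.38 points, and every one of those 4 intervals included 0. Among the 481 members of the lowest-ranked part 39 lay within 1 kb (8.11%), against 9.90% of 990 shared peaks. With shared peaks weighted to the members' ranks, their share within 1 kb was 11.7%, against 8.99%. Median distances did not keep 1 order: from the highest-ranked to the lowest-ranked part they were 57.8, 115, 101, 167 and 192 kb for members and 33.8, 69.4, 128, 146 and 181 kb for shared peaks. In the middle part members were thus the nearer.

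**Figure D3:**
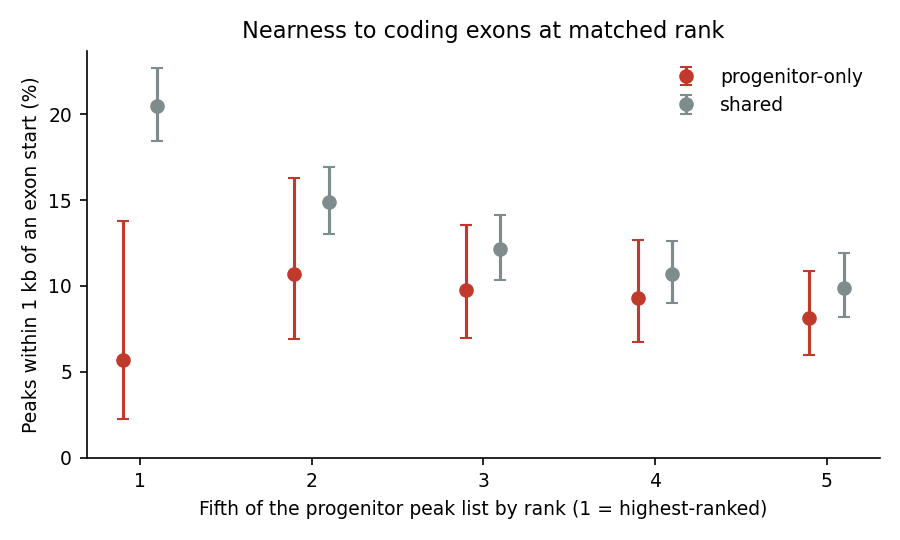
Share of peaks that lie within 1 kb of any coding exon start in the table (y axis, percent) in each of 5 equal parts of the progenitor list by rank (x axis, 1 holds the highest-ranked peaks), for progenitor-only and shared peaks, with Wilson 95% intervals as bars. The intervals are apart in the highest-ranked part, at 5.71% and 20.5%, and overlap in the other 4.

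The 10 highest-ranked members lay at widely varied distances from listed exons. The first in rank was at chr5:43623224-43627271, 119th of the progenitor list with an enrichment of 10.4, and its nearest listed gene, Tapt1, was 941 kb off. The next, at chr8:24132989-24134853 and rank 351, lay 40.6 kb on the 5′ side of the listed exons of Ank1, which encodes the ankyrin that anchors spectrin to the red cell membrane. Its enrichment was 10.9, and the nearest erythroblast peak was 33.1 kb away. Ank1 had a coverage signal of 91.0 in progenitors and 817 in erythroblasts, and 2 erythroblast-only peaks lay within 5 kb of its listed exons, at chr8:24195742-24198583 and chr8:24252653-24255449. A member of rank 524 at chr11:32354326-32356090 had the alpha-globin genes Hba-a1 and Hba-a2 as its nearest listed item, at 157 kb. The rest of the 10 highest-ranked lay nearest to Pprc1, Thra, Ndufa5, the replication helicase gene Mcm5, Get4, Tent4b and Bard1, at distances from 4.76 kb (Pprc1) to 2162 kb (Ndufa5). None of the 10 lay within 1 kb of an exon start, against 8.99% of all members, and 10 peaks are too few for a comparison.

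At exon starts the highest-ranked members sat at genes of varied function, most without a 2-fold difference in RNA. Mrpl58 had a peak of rank 921 over its first coding exon (chr11:115264686-115265754, enrichment 12.1), with a coverage signal of 12.3 in progenitors and 12.1 in erythroblasts. Others among the highest-ranked such peaks lay at Cacul1, the RNA methyltransferase gene Nsun2, the adaptor gene Crkl, Mfsd5, Blvrb, Tmem238, the ubiquitin ligase gene Cul4b and Tsc22d4. Of the genes named here, Blvrb was at least 2-fold higher in erythroblasts, Tsc22d4 was at least 2-fold lower with 40.7 and 17.9, and the others were neither. Mrpl58 and Tmem238 also had a shared peak within 5 kb, and Blvrb and Tsc22d4 an erythroblast-only peak. The rest of the genes named here had no erythroblast peak within 5 kb.

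The table allows exon starts at the 5′ end of a coding region to be picked out for genes on the forward strand, where exons are numbered from the 5′ end. Of 660 such first coding exons 42 had a progenitor-only peak within 1 kb, or 6.36% (4.74 to 8.49). Shared peaks were at 284 of them (43.0%) and erythroblast-only peaks at 196 (29.7%). As a comparison at the other end of genes, 11 of 1518 last coding exons of reverse-strand genes had a progenitor-only peak within 1 kb, or 0.725% (0.405 to 1.29). Members thus lay at the start of coding regions more often than at the end, as did shared peaks with 4.08% at those last exons. Of the 41 first-exon genes that could be followed in RNA, 36 had no erythroblast peak within 5 kb (87.8%), which the choice of members favours, against 53.5% of all genes.

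Genes near progenitor-only peaks included both rises and falls in RNA. A gene was counted if a member fell between its outermost listed exon starts or at most 5 kb outside them, as was so for 252 of 5194 genes (4.85%) and 218 of the 1402 members (15.5%). Of these genes 250 had 1 such peak, and neighbouring genes can share a peak. Here rose and fell mean that the coverage signal summed over exons, with 1 added in each stage, was at least 2-fold higher or lower in erythroblasts. Of the 252 genes 33 rose (13.1%), 40 fell (15.9%) and 179 did neither, while over all genes 15.3% rose and 13.2% fell. The median log2 difference was -0.08, against 0.03 over all genes. Against genes with no progenitor-only peak the share that rose differed by -2.30 points (-6.06 to 2.52), and the share that fell by 2.84 points (-1.27 to 7.94). Both intervals include 0, and they cover counting error over genes only. In a window of 1 kb 12 of 141 genes rose (8.51%) and 25 fell (17.7%), and in one of 50 kb 103 of 805 rose (12.8%) and 114 fell (14.2%). The share that rose was then below that of genes outside the window, by -6.97 points (-10.7 to -1.11) at 1 kb and -2.95 points (-5.35 to -0.25) at 50 kb, while both intervals for the share that fell include 0. The median log2 difference was -0.15 (-0.36 to -0.01) at 1 kb and -0.13 (-0.20 to -0.02) at 50 kb, against -0.08 (-0.22 to 0.08) at 5 kb. The call on rises therefore depends on the window. In sorted bulk samples, a change in the mix of cells and a change in RNA per cell cannot be told apart, and the progenitors pool CD71- and CD71+ cells. Exons not listed are missing from these spans, so a peak outside a span can still lie within the gene. Exons with a signal below 0.80 in either stage are not listed. A gene with no listed exon, as when its signal is low in 1 stage, could not count as risen or fallen.

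The genes were also split by their erythroblast peaks. Of 183 genes with a progenitor-only peak and no erythroblast peak, 19 rose (10.4%) and 26 fell (14.2%), and the share that rose differed from that of genes with no progenitor-only peak by -5.02 points (-8.79 to 0.34). Of 34 genes that had an erythroblast-only peak as well and none shared, 9 rose (26.5%, interval 14.6 to 43.1) and 5 fell (14.7%, 6.45 to 30.1). Of 35 genes that also had a shared peak, 5 rose (14.3%, 6.26 to 29.4) and 9 fell (25.7%, 14.2 to 42.1). Of these 6 shares the last was the one whose interval did not take in the share over all genes.

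**Figure D4:**
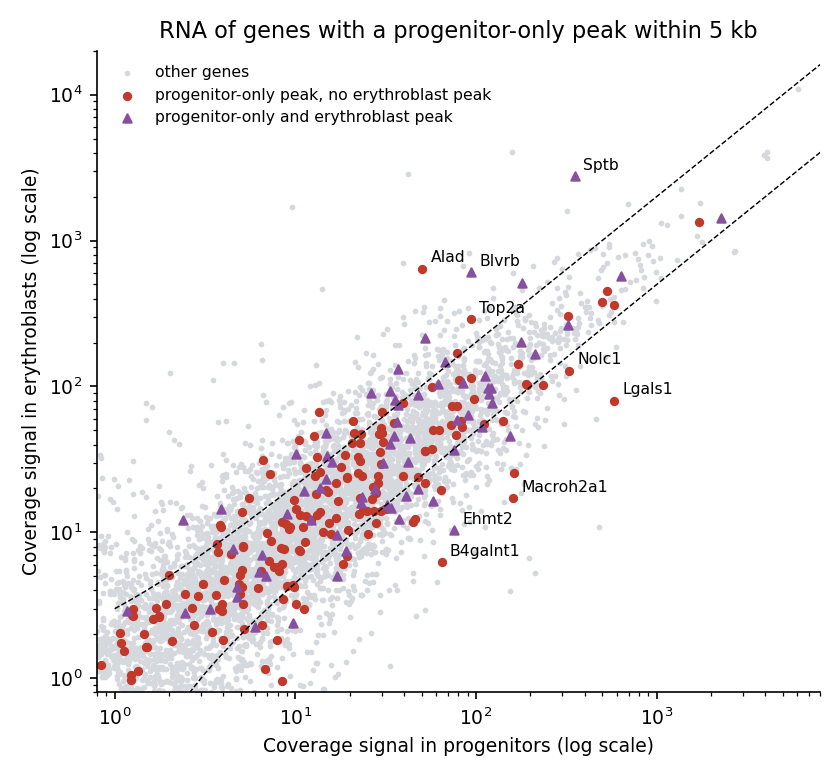
Summed RNA coverage signal of each gene in progenitors (x axis, log scale) and erythroblasts (y axis, log scale), with dashed lines at the 2-fold rule with 1 added in each stage. Genes with a progenitor-only peak within 5 kb (red circles without and purple triangles with an erythroblast peak there) lie among the other genes (grey), 33 of 252 above the upper line and 40 below the lower line.

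The 3 largest rises were in Alad, Sptb and Blvrb, all known from red cells. Alad, which encodes the enzyme that joins aminolevulinic acid molecules in heme synthesis, had a coverage signal of 50.5 in progenitors and 642 in erythroblasts. All 10 listed exons were higher in erythroblasts, and the log2 difference over the gene was 3.64. Its peak, at chr4:62180039-62181503 and rank 2099, lay 4.93 kb on the 5′ side of its listed exons, and an erythroblast peak began 3.76 kb farther off, beyond the 5 kb limit. The same progenitor-only peak was nearer, at 3.47 kb, to the 3′ side of Pole3, a DNA polymerase epsilon subunit gene, which had 14.7 and 48.2. Sptb, the beta chain of red cell spectrin, had 353 and 2756 (log2 difference 2.96), with 31 of 31 exons higher. Its progenitor-only peak lay 4.24 kb on the 5′ side (chr12:77755006-77757193, rank 3692). On the 3′ side of the listed exons of Sptb, which leave out its last coding exons, were 2 erythroblast-only peaks. They were at chr12:77692729-77695681 and chr12:77696459-77697859. Blvrb, whose promoter is shown above, had 93.5 and 608 (log2 difference 2.69). The progenitor-only peak (chr7:28232094-28234225, rank 2083) covered its first coding exon start, and erythroblast-only peaks lay at chr7:28243585-28244875 within the gene and at chr7:28254622-28256077 beyond its last listed exon.

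Below these came Nbr1, an autophagy receptor, with 13.49 in progenitors and 66.9 in erythroblasts, Smpd1, the acid sphingomyelinase, with 6.62 and 31.3, and Ehd1, an ATPase of endocytic recycling, with 52.1 and 215. Their log2 differences were 2.23, 2.08 and 2.02. Peaks at Smpd1 and Ehd1 covered the first coding exon start. Hnrnpa1 (1.96), the cytochrome oxidase subunit gene Cox6c (1.94), the vesicle fusion gene Napa (1.79) and Ccdc97 (1.79) completed the 10 largest rises. The peak counted for Napa lay 2.83 kb on its 3′ side and covered the first coding exon start of Kptn, which had 1.51 and 1.64. At Napa itself an erythroblast-only peak covered the first coding exon start. Hnrnpa1 rests on 1 listed exon and has near-identical copies in the genome, so its value is uncertain. The 22 risen genes outside the naming rule had log2 differences from 1.003 to 1.75. Of 31 risen genes with at least 2 listed exons, 27 had every exon higher, which the choice of these genes favours.

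The largest falls included histone, galectin and ribosome assembly genes. B4galnt1, a ganglioside synthase, had a signal of 64.6 in progenitors that dropped to 6.26 in erythroblasts (log2 difference -3.17) on 1 listed exon. Macroh2a1, a histone H2A variant linked to silent chromatin, had 161 and 17.3 (-3.15), with all 7 listed exons lower. Its peak, at chr13:56228377-56229685 and rank 6773, covered the start of its listed exon nearest the 5′ end, 6.14 kb from the next erythroblast peak. Lgals1, which encodes galectin 1, had 584 and 79.9 (-2.85), with its peak 4.33 kb on the 3′ side. Ehmt2, a histone H3 lysine methyltransferase, had 75.3 and 10.3 (-2.75). At Ehmt2 the progenitor-only peak (chr17:35030405-35032486, rank 3688) lay on the 5′ side, and an erythroblast-only peak (chr17:35034567-35037020) 2.08 kb from it covered the first listed exon start.

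Pprc1, a coactivator of mitochondrial biogenesis, had 163 in progenitors against 25.4 in erythroblasts (log2 difference -2.64). Its peak, at chr19:46130329-46132339, ranked 461 with an enrichment of 11.5 and lay 4.76 kb on the 5′ side of its listed exons, which leave out its first coding exon. Nle1, a factor of large ribosomal subunit assembly, had 8.47 and 0.964 (-2.27), and Kti12 had 45.0 and 11.8 (-1.85), each on 1 listed exon. Nufip1, which helps assemble small nucleolar ribonucleoproteins, fell by 1.85 on the log2 scale, also on 1 exon. In erythroblasts Nle1 and Nufip1 (1.17) lay near the lowest listed value of 0.80, where the fold depends strongly on the added 1. Wdr46, of the small ribosomal subunit processome, fell by 1.83, but the median over its 9 exons was only -0.72. The peak counted for Wdr46 lay 1.01 kb on its 3′ side and was nearer, at 97 bp, to Rps18. Sh3bp1 fell by 1.75. The 25 fallen genes outside the naming rule had log2 differences from -1.72 to -1.01. Of 31 fallen genes with at least 2 listed exons, 22 had every exon lower, which the choice of these genes favours too.

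**Figure D5:**
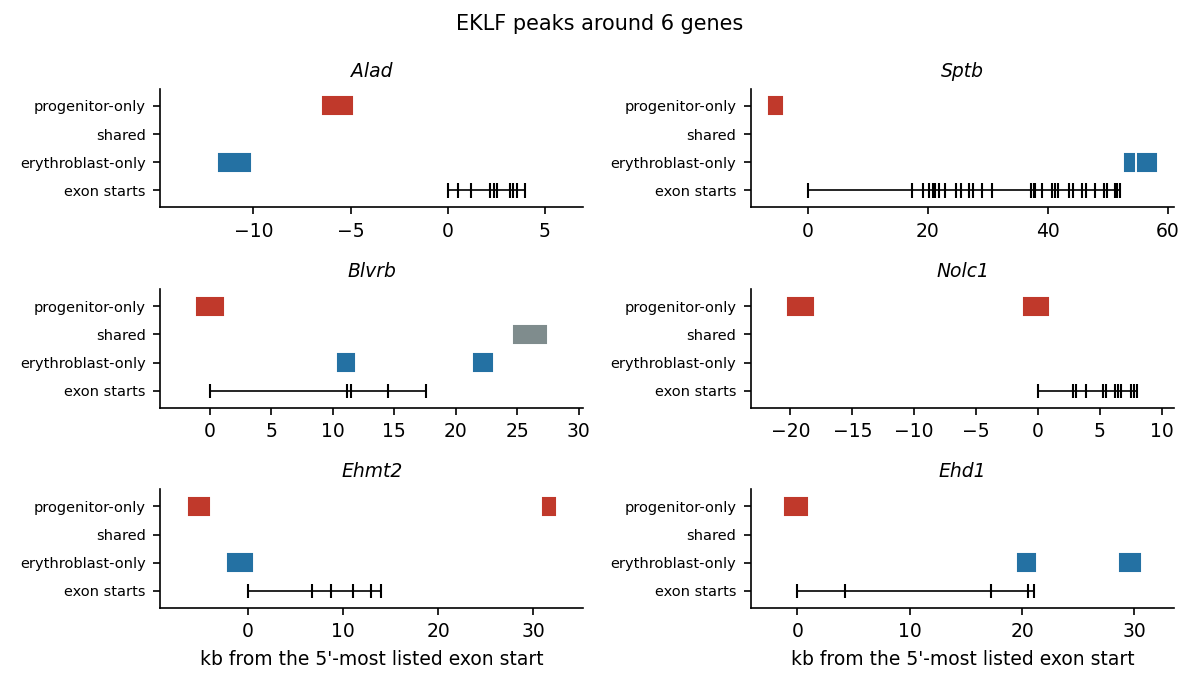
Positions of progenitor-only, shared and erythroblast-only peaks (colored bars) and of listed exon starts (ticks) around 6 genes, in kb from the listed exon start nearest the 5′ end, with 5′ to the left. At Blvrb, Nolc1 and Ehd1 a progenitor-only peak covers that exon start. At Sptb the progenitor-only and the 2 erythroblast-only peaks lie at opposite ends of the listed exons.

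Of 126 listed genes on the 12 gene lists 8 had a progenitor-only peak within 5 kb (6.35%), against 4.85% of all genes. Of 17 listed heme and iron genes only Alad had one within 5 kb, and of 11 membrane and skeleton genes only Sptb. Of 16 erythroid transcription factor genes only Nfe2 did, a factor of globin gene activation, with 177 in progenitors and 202 in erythroblasts. A single peak at chr15:103078341-103079814 served both Nfe2 and Hnrnpa1. At Nfe2 it covered the listed exon start nearest the 3′ end, and at Hnrnpa1 it lay 4.99 kb on the 3′ side. On the 5′ side of Nfe2, at 3.46 kb, lay an erythroblast-only peak (chr15:103084818-103086210). Neither globin item had a progenitor-only peak within 5 kb. Within 50 kb the erythroid lists added Slc25a39, a mitochondrial carrier with 47.7 and 123, Add2, the beta chain of adducin, with 85.2 and 674, Ank1, and Ldb1, a bridging factor of erythroid enhancer complexes with 258 and 152. The peaks counted for Ldb1 included those at Pprc1 and Nolc1, and a shared peak lay 2.63 kb on the 5′ side of Ldb1. For Slc25a39 they included peaks nearest to Grn. Over all genes 15.5% had a progenitor-only peak within 50 kb.

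Among growth genes, Cdk4, the kinase of G1 cyclins, had a peak over its listed exon start nearest the 5′ end (chr10:126499995-126501671, rank 5908), with 191 in progenitors against 103 in erythroblasts (log2 difference -0.89, under the 2-fold rule). It was 1 of 9 listed G1 regulators with a peak. Top2a, which untangles DNA in mitosis, was 1 of 23 S phase and mitosis genes, with 93.4 and 289, a log2 difference of 1.62. Of 15 ribosome biogenesis genes 2 had a peak within 5 kb. Both fell, as did 7 of the 15 on the list. Nolc1 went from 326 to 128 (-1.34), with a peak over its first coding exon at chr19:46149360-46151306. Polr1a, the largest subunit of RNA polymerase I, went from 28.1 to 11.6 (-1.21), with a peak between listed exons. Sdha, a housekeeping gene of succinate dehydrogenase, had 117 and 97.5. None of 4 stem and progenitor, 10 autophagy and maturation, 2 myeloid and lymphoid or 9 immediate early genes listed had a progenitor-only peak within 5 kb, and a list of this size allows no comparison with the 4.85% of all genes.

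Of the 252 genes with a progenitor-only peak within 5 kb, 34 also had an erythroblast-only peak there and no shared peak. Of all 5194 genes, 1000 (19.3%) had an erythroblast-only peak within 5 kb and no progenitor peak. At the 34 genes the distance from the progenitor-only to the nearest erythroblast-only peak had a median of 5.46 kb. It ranged from 0.18 kb at Tmem203 to 179 kb at Snd1. At Fbxl19, an F-box protein gene, it was 0.293 kb, and RNA went from 10.1 in progenitors to 34.6 in erythroblasts. At Ring1, a Polycomb ubiquitin ligase gene, it was 1.12 kb, with 6.30 and 5.32. At Ndufb10, a gene of respiratory complex I, and Rps2, a ribosomal protein gene, it was 2.28 kb from the same peaks, with 26.3 and 90.6 for Ndufb10 and 121 and 97.9 for Rps2. Ndufb10 rose and Rps2 did not pass the rule, around 1 pair of peaks. Fbxl19, Ring1, Ndufb10 and Rps2 were chosen after their values were seen.

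Outside the listed exons, members lay more on the 5′ than on the 3′ side. Sides were taken from the outermost listed exon starts. Where the first exons of a gene are not listed, a peak on the 5′ side can thus lie within the gene. Of 254 pairs of a gene and a progenitor-only peak within 5 kb, 111 peaks lay inside the listed exons, 93 on the 5′ side and 50 on the 3′ side. The 5′ side held 65.0% (56.9 to 72.4) of those outside, against 74.2% (71.0 to 77.2) for shared and 67.6% (64.2 to 70.9) for erythroblast-only peaks. The difference was -9.18 points (-17.8 to -1.18) from shared peaks and -2.57 points (-11.3 to 5.53) from erythroblast-only peaks.

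Promoter letters differed between genes near members and other genes. Of the 252 genes 208 matched an entry of the RefSeq promoter table, with 250 bases before and 50 after the start. CCNCNCCC, searched on both strands, was in 57.7% (50.9 to 64.2) of their promoters, against 69.9% of other genes with RNA values, a difference of -12.2 points (-19.1 to -5.52). CCGGAA was in 45.7% against 37.3%, a difference of 8.37 points (1.57 to 15.3). The stricter CCACACCC, which also matches CCNCNCCC, was in 1.92% against 3.83%. Over all 27025 promoters of the table CCNCNCCC was in 49.1%, CCGGAA in 15.2% and CCACACCC in 3.57%. Base composition moved with these shares, with a median G and C content of 59.7% in the promoters near members and 61.7% in those of genes with values, and its part in the result was not tested.

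In the 34 matched genes with a member at the first coding exon, CCGGAA was in 52.9% of promoters, as in those of Mrpl58, Kti12 and Nolc1 printed above. In 238 matched genes with a shared peak there it was in 33.6%, a difference of 19.3 points (1.97 to 35.9). CCNCNCCC was in 64.7% against 76.1%, a difference of -11.3 points (-28.9 to 3.63) that includes 0. The median G and C content was 57.2% against 64.3%. In 155 matched genes with an erythroblast-only peak there CCGGAA was in 39.4%, CCNCNCCC in 63.9%, and G and C content was 60.7%. Members differed from these by 13.6 points for CCGGAA (-4.42 to 30.8) and 0.83 points for CCNCNCCC (-17.4 to 16.7), and both intervals include 0. For the other motifs searched, the intervals of all 3 comparisons included 0, and no interval was adjusted for the number of motifs. These were the CACC box CCACACCC, the GATA forms AGATAA and TGATAA, the E-box CAGCTG, the NRF1 motif and CCAAT, the last 5 found in 11.4%, 9.26%, 16.1%, 4.78% and 37.9% of all promoters in the table.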

How the data were processed

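The authors deposited a pooled peak list for each stage, on build mm9 per the submitters' processing notes. Per the labels, ChIP fragments of about 200 bp were taken, with input chromatin as background. The tools for alignment, peak calling and counting are unstated in the sources used here. In the deposited lists, column 7 was read as the authors' fold enrichment (a ratio) and column 8 as the authors' −log10 p, from their range. Although the authors' expression table carries the name RPKM, its deposited values were read as a coverage signal per coding exon, because 100% were whole multiples of 1 step per column with no exon length divided out. No source used here says if its erythroblast column pools both libraries, so the authors' signal is printed with no SD. Per the labels, RNA reads were paired and 51 bp long.

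Peaks overlapping by 1 bp were shared. The position in each exon name was taken as the exon start on both strands, so on the reverse strand it can be the exon's 3′ edge. Exon names were matched to symbols through RefSeq of GRCm38.p6 (6772 of 6853 transcripts). The transcript with the most listed exons was kept per gene and its exons were summed, giving 5194 genes, and 1 was added to each stage before log2. A test needed a column per library, so the 2-fold rule stands in its place. Shares carry Wilson and differences Newcombe 95% intervals. The members and lists were chosen with earlier results of these data known. Genes and peaks were named by rule: the 10 highest-ranked members overall and at exon starts, the 5 widest, those nearest the edge of the rule, the 5 highest-ranked with no erythroblast peak within 100 kb, runs of 3, the 10 largest rises and falls, list members within 5 kb (50 kb for erythroid lists), Klf1 and Tfrc. Some items that the rule names are left out of the text. Alternatives were other overlaps, peak thresholds, windows, pseudocounts and gene summaries. Scripts were tested on simulated data. Python 3.11.15, pandas 2.3.3, numpy 2.4.6, scipy 1.17.1 and matplotlib 3.10.9 were used.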

Additional observations from a re-analysis of the deposited data

How the results depend on the processing

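Of 60 alternatives 21 moved, by over 1.5 times for a count or beyond the reported value's 95% interval for a share or median, and 39 did not. The number of progenitor-only peaks depended most on the thresholds of the lists: it was 210 of 2664 with progenitor peaks of −log10 p of at least 10, 3039 (41.3%) with erythroblast peaks of at least 10, and 3794 (51.6%) with only as many of the highest-ranked erythroblast peaks as there are progenitor peaks. The share within 1 kb of an exon start was 7.56% from peak centres and 15.4% in a window of 5 kb, and the median distance was 100.1 kb for peaks of −log10 p of at least 10. Of genes near members, 12 of 141 rose (8.51%) and 25 fell (17.7%) in a window of 1 kb, 103 of 805 (12.8%) and 114 (14.2%) in one of 50 kb, 5 of 38 (13.2%) and 4 (10.5%) with peaks of −log10 p of at least 10, and 19 of 183 (10.4%) and 26 (14.2%) with no erythroblast peak. The number that fell was 22 with a pseudocount of 5, where 7.91% of all genes fell, and 25 by the median of exon ratios, where 9.72% did. In genes with the peak at the first coding exon, CCACACCC and TGATAA were in 0% of 34 promoters, CCNCNCCC in 64.7%, CAGCTG in 17.6% and CCGGAA in 52.9%. No paired analysis was possible because each stage has 1 peak list and 1 RNA column. Read totals were not used here, so absence from the erythroblast list was read only as not called.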

Other observations

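Members came mostly alone. With members at most 50 kb apart joined into runs, 1275 stood alone, 56 runs held 2 and 5 runs held 3. The highest-ranked run of 3 lay around Glrx3, which encodes a glutaredoxin of iron-sulfur protein assembly, at chr7:144601820-144667972, where RNA of Glrx3 fell from 8.52 to 3.49. A run at chr11:98797198-98886034 began on the 3′ side of Cdc6, a licensing factor of replication origins that rose from 35.8 to 141, and ended on the far side of Top2a. A run at chr11:97392714-97408905 had Arhgap23 as its nearest listed gene, 79.9 to 94.2 kb off, whose 1 listed exon went from 4.55 to 145. The others lay at Syvn1, Vps51 and Zfpl1 on chromosome 19 and at Slc25a39 and Grn on chromosome 11.

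By chromosome the progenitor-only share of progenitor peaks lay between 16.2% (chromosome 10) and 23.3% (chromosome X, 81 of 348, interval 19.1 to 28.0), leaving out chromosome Y with 1 of 2 peaks. The X held 5.78% of progenitor-only, 4.48% of shared and 7.68% of erythroblast-only peaks. The widest member, at chr1:84996815-85008372, spanned 11.6 kb with an enrichment of only 3.47. The next widest, at chr1:85206523-85213735, spanned 7.21 kb with an enrichment of 2.61, the lowest of all members, and both had Trip12 as nearest listed gene.

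Further genes with a member at the first coding exon, named after their values were seen, were Phb2, an inner mitochondrial membrane scaffold gene that fell from 235 to 103, and Rack1, a ribosome-bound scaffold gene with 1719 and 1336. Twnk, the mitochondrial DNA helicase gene, fell from 10.1 to 3.24, and Pbx2, a homeodomain factor gene, from 19.2 to 7.42. Ech1, an enzyme gene of fatty acid oxidation, rose from 20.8 to 58.4. Of all 41 such genes 4 rose (9.76%) and 8 fell (19.5%), against 15.3% and 13.2% of all genes, with a median log2 difference of -0.09.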
